A study of Mus musculus with 16 samples.

Results

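The transcriptome of NELF-B KO bone marrow-derived macrophages (BMDM) was compared with that of WT BMDM after both had been treated with LPS + Dex. The comparison rests on 6 of the 16 RNA-seq libraries of the series, 3 KO and 3 WT, chosen by their labels, and covers all 9614 genes of the deposited table, of which 9441 lie outside the study's list of LPS-induced Dex-repressed genes and 173 inside it. WT stands for LysM-Cre:NELF-B wt/wt and KO for LysM-Cre:NELF-B fl/fl, so that both groups carry the LysM-Cre transgene, which is driven by the regulatory sequence of a lysozyme gene active in myeloid cells, and in the KO exon 4 of Nelfb is floxed. The mice were C57BL/6 males of 8 weeks, LPS (bacterial lipopolysaccharide, a Toll-like receptor 4 ligand) was given at 10 ng/ml, the synthetic glucocorticoid dexamethasone (Dex) at 100 nM, and RNA was taken at 1 hr. The same mice also gave libraries after LPS alone (3 WT and 3 KO) and, for 2 mice of each genotype, from untreated cells. From tokens in the library labels the mice were put into 3 KO and WT pairs, numbered 1 to 3 here, where pair 2 is the pair left over. The libraries of a pair deviated from their group means together.

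NELF is a complex of 4 proteins that holds RNA polymerase II shortly after it has started a gene, together with the DSIF proteins, until a kinase releases it. BMDM are grown from bone marrow in culture and go on dividing as long as they are kept in growth factor, so their RNA holds both the immune programme of a macrophage and the programme of a dividing cell. Dividing cells switch on genes of DNA replication first, largely through E2F transcription factors, and genes of mitosis later, largely through the MuvB complex with B-Myb and FOXM1.

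Levels are given throughout as log2 CPM, the base 2 logarithm of CPM, a read count scaled to the depth of its library, and differences as KO minus WT on the same scale. The effective depth of the 6 libraries was 28880000 to 41195000 reads, at which 3 reads were worth at most 0.104 CPM. The macrophage markers Csf1r (11.4 to 11.9) and Cd68 (10.1 to 10.6) were high in every library. Of markers of other cell types, none of 7 mast cell and 7 erythroid genes was in the table. Of 10 T and NK cell genes Cd4 alone was present, while Cd3d, Cd3e and Cd3g were not. Cd4 ranged from 7.45 to 59.2 CPM in the WT and from 5.17 to 37.9 in the KO. It was lower in the KO of each pair but not called without the pairs as a block (limma adjusted p = 0.714). The 3 of 12 neutrophil markers present summed to 178 to 238 CPM in the WT and 240 to 309 in the KO, and the 5 of 11 stromal markers to 113 to 170 and 129 to 219. The summed ranges of the 2 of 6 B cell markers (19.0 to 94.3 in the WT, 21.8 to 94.2 in the KO), the 3 of 8 dendritic cell markers (11.3 to 29.5 and 8.19 to 24.5) and the 3 of 7 osteoclast markers (173 to 258 and 138 to 348) overlapped between the groups. No member of these lists was called without the mouse pairs as a block. With the pairs as a block, Cd4 and 1 dendritic cell marker were called lower at an unadjusted p. At that p, 1 neutrophil marker and 1 stromal marker were called higher. None of them was called by the adjusted p. The part of these markers in the results was not tested.

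At an unadjusted p under 0.05 and over 1.5-fold, the threshold of the study's methods, 254 genes were lower in the KO (2.64% of the genes tested) and 107 were higher (1.11%). For this comparison the study's results and figure legend name an FDR under 0.05 with the same fold. In the limma fit no gene passed a Benjamini-Hochberg FDR of 0.05, where 1090 genes had an unadjusted p under 0.05 and the lowest adjusted p was 0.0503. With the mouse pairs as a block, 13 genes were lower (0.135%) and 35 higher (0.364%) at that FDR and over 1.5-fold. These counts depended on the mice. Without the WT library of pair 3, 398 genes were lower and 173 higher at the unadjusted p, and the block gave 0 and 0 genes at the FDR without pair 2 and 191 and 77 without pair 3. The median difference over all genes was 0.01. Of the genes called lower, 251 lie outside the Dex-repressed list. They are 2.66% of the genes outside it, close to the 2.64% of all genes tested. The cell cycle and DNA repair lists described next are short and hold part of the genes called lower, while 206 are in neither list. Further genes of dividing cells, such as Tcf19, Anln, Cep55 and Ube2c, are among these 206. These 206 had a median difference of -0.90 and pair medians of -1.28, -0.92 and -0.50. The genes called higher comprise 26 members of the Dex-repressed list (15.03% of its measured genes) and 81 other genes (0.858% of the genes outside it).

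**Figure D1:**
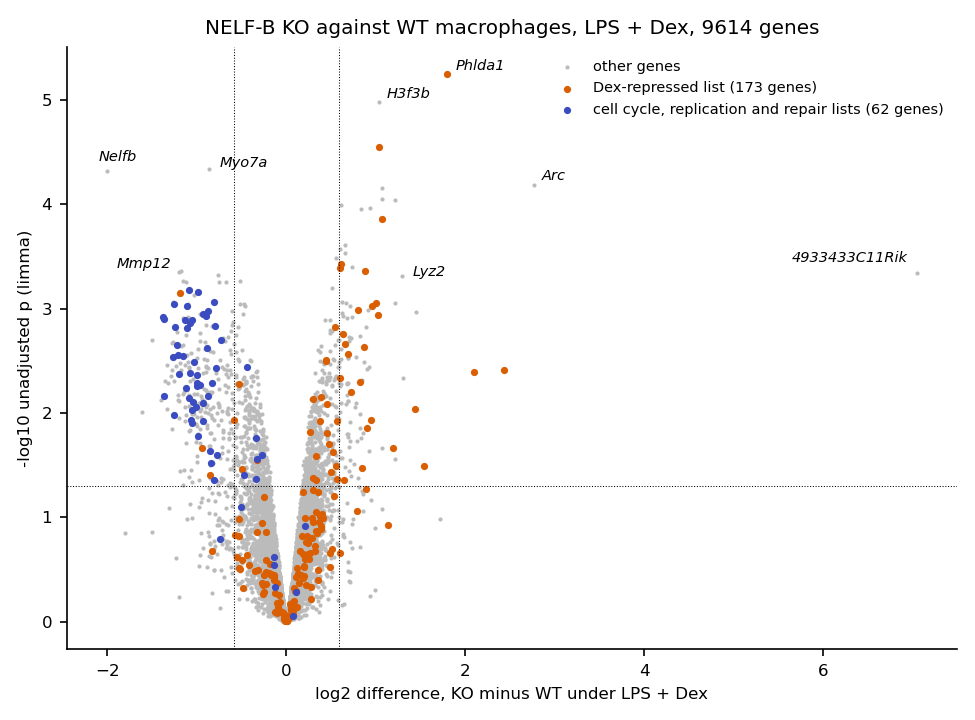
Each point is 1 of 9614 genes, with the log2 difference of KO minus WT under LPS + Dex on the horizontal axis and -log10 of the unadjusted limma p on the vertical axis, and dotted lines mark 1.5-fold and a p of 0.05. Blue points are the members of the cell cycle, replication and repair lists, which gather on the left side, and orange points are the 173 genes of the Dex-repressed list, 26 of them called higher and 3 called lower.

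Nelfb, the targeted gene, had 5.64, 5.68 and 5.73 log2 CPM in the WT libraries of pairs 1, 2 and 3 and 3.53, 3.28 and 4.22 in the KO libraries. All KO values lay below all WT values. The difference was -2.003 (standard error, SE, 0.23, limma adjusted p = 0.0889 and 0.0328 with the pairs as a block), so that the KO libraries held 23.3%, 18.9% and 35.3% of the Nelfb CPM of their WT partner. The table counts reads over the whole gene, and reads from exons other than the floxed one are counted in the KO too. The other subunits of NELF and DSIF were not called. Nelfa, Nelfcd and Nelfe differed by -0.14, 0.07 and -0.09, and Supt5 and Supt4a, the DSIF subunits, by 0.10 and 0.20, each with an adjusted p of at least 0.64.

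Nelfb lies on chromosome 2 of GRCm38, from 25199712 to 25211489 on the minus strand. The gene with the largest difference of all, 4933433C11Rik (Stpg3 in RefSeq), is its nearest upstream neighbour on the same strand, from 25212207 to 25214637, with 717 bases between them. It was singled out after its values were seen. It had 0 reads in each of the 3 WT libraries and 102, 80 and 221 reads in the KO libraries of pairs 1, 2 and 3. Against the 3 reads per library that a count of 0 allows, it was at least 27.9-fold higher in every KO library. It was as high in the KO after LPS alone (1.92, 1.59 and 2.58 log2 CPM) and in the 2 untreated KO libraries (1.52 and 2.55), while no WT library of the series exceeded -3.77 log2 CPM. Whether the counting used the strand of the reads is not given in the sources used here, and in counts per gene a transcript of 4933433C11Rik and reads from a transcript of the altered Nelfb allele cannot be told apart. Of the 12 other measured genes that lie within 150 kb of Nelfb, 11 were not called, and Tubb4b, a beta tubulin 10670 bases upstream, was lower by 0.64 (limma adjusted p = 0.28).

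The cell cycle and DNA replication list was the list with the most genes called lower in the KO. Of its 47 members, all measured, 38 were called lower and none higher, and the median difference was -0.96. In bulk RNA, fewer dividing cells and less of these RNAs per cell cannot be told apart. The WT libraries differed among themselves more than the KO libraries did. The median member had 4.85, 4.75 and 3.98 log2 CPM in the WT libraries of pairs 1, 2 and 3 and 3.39, 3.70 and 3.34 in the KO libraries. The median difference within a pair was accordingly -1.39 in pair 1, -0.94 in pair 2 and -0.50 in pair 3, with 47, 47 and 45 of the 47 members below 0. With the pairs as a block, 39 members were called lower at an unadjusted p, and 1 member, Ccnb1, also at an FDR of 0.05.

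**Figure D2:**
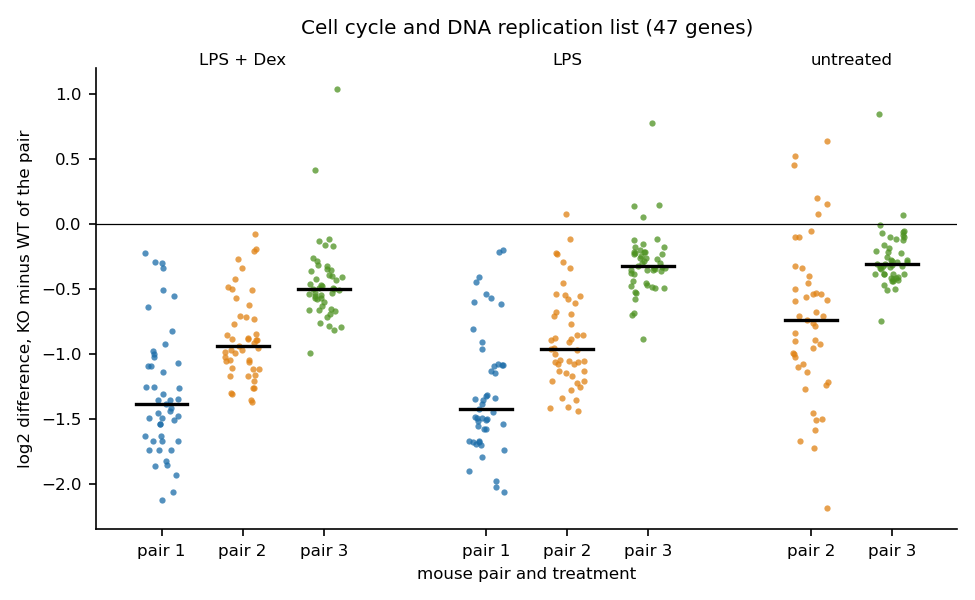
Each point is 1 of the 47 genes of the cell cycle and DNA replication list, plotted as the log2 difference of KO minus WT within a mouse pair (vertical axis) for each pair and treatment (horizontal axis), and black lines mark the medians. Under LPS + Dex the medians were -1.39, -0.94 and -0.50 in pairs 1, 2 and 3, and the same order of pairs was seen after LPS alone and, for pairs 2 and 3, in untreated cells.

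Promoters of 3 genes called lower, Top2a and Mcm5 of the list and Ube2c outside it, are shown, because they carry the DNA letters that E2F and MuvB complexes are known to bind. Each window runs from 250 bases before to 30 bases after the RefSeq start of the gene, in GRCm38.p6, and is written 5′ to 3′ on the strand of the gene. Top2a is at chr11:99024160-99024439 on the minus strand, Ube2c at chr2:164769679-164769958 on the plus strand and Mcm5 at chr8:75109259-75109538 on the plus strand. Capitals mark the cell cycle homology region TTTGAA on either strand in Top2a (2 matches) and Ube2c (1 match), and the E2F letters TTTNGCGC on either strand in Mcm5 (2 overlapping matches).
Top2a: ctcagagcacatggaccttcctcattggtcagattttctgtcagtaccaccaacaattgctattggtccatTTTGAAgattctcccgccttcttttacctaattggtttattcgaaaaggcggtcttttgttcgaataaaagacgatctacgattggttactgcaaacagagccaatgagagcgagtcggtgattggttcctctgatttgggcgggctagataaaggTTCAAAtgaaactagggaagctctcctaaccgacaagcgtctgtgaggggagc
Ube2c: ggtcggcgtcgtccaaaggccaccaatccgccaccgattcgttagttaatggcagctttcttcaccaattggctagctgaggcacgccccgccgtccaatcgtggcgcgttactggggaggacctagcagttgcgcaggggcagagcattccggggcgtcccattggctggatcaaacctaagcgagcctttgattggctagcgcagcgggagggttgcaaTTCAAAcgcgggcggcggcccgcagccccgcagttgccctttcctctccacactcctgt
Mcm5: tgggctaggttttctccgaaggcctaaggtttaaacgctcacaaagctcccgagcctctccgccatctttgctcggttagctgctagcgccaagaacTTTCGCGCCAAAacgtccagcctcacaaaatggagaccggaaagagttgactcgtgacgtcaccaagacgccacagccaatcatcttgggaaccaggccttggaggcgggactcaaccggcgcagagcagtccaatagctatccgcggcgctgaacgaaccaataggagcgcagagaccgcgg
The 3 genes were chosen for display after their values were seen. In Top2a and Ube2c the last TTTGAA match lies close before the start, on the opposite strand. These 2 windows also hold 6 and 5 CCAAT boxes on either strand, where boxes that overlap each other were counted as 1. A match is a description of the letters and not evidence of binding.

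By role, the genes of G1 differed least. Of 8 D and E type cyclins and their kinases, 3 were called lower. Ccne2, cyclin E2, which drives entry into S phase, had 3.07, 2.58 and 2.25 in the WT and 1.00, 1.31 and 1.47 in the KO, without overlap, a difference of -1.37 (SE 0.26, limma adjusted p = 0.172). Ccne1 was lower by 1.08 and Ccnd1 by 0.81. Ccnd2, Ccnd3, Cdk2, Cdk4 and Cdk6 were not called, with differences between -0.50 (Cdk6) and 0.07 (Ccnd2).

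The replication machinery was lower almost throughout. Of 12 genes of origin licensing and the replicative helicase, 11 were called lower, the exception being Pcna, the sliding clamp, at -0.33. All 6 subunits of the MCM helicase were among them, from -0.73 for Mcm3 to -1.11 for Mcm5. Mcm5 had 6.48, 6.07 and 5.89 in the WT and 4.74, 5.01 and 5.36 in the KO (SE 0.20, limma adjusted p = 0.172). Cdc45, which joins MCM in the active helicase, was lower by 1.21, and the loading factors Cdc6 and Cdt1 by 1.03 and 0.79. All 5 enzymes of nucleotide synthesis were called lower, from -0.90 for Rrm1 to -1.20 for Tk1, thymidine kinase.

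Of 17 genes of mitotic entry and division, 16 were called lower. Ccnb1, cyclin B1, which activates Cdk1 at mitotic entry, had 4.58, 4.75 and 3.98 in the WT and 3.08, 3.48 and 2.99 in the KO, so that every KO value lay below every WT value. Its difference was -1.25 (SE 0.23, limma adjusted p = 0.172 and 0.0353 with the pairs as a block). Ccna2, cyclin A2, was lower by 1.25 with WT values of 5.18, 4.95 and 4.29 and KO values of 3.32, 3.84 and 3.52. Top2a, the topoisomerase that untangles replicated chromosomes, was lower by 1.13 and Cdk1 itself by 0.99. The exception was Mki67, the proliferation marker Ki-67, which had 7.55, 7.73 and 7.21 in the WT and 7.25, 7.22 and 7.62 in the KO, with overlapping groups and a difference of -0.13 (SE 0.17, limma adjusted p = 0.835). Mki67 was lower in the KO of pairs 1 and 2 and higher in the KO of pair 3.

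Regulators of the cycle were lower too. Foxm1, a transcription factor of mitotic genes, had 4.70, 4.67 and 3.75 in the WT and 3.19, 3.36 and 3.09 in the KO, a difference of -1.16 (SE 0.26, limma adjusted p = 0.198). Uhrf1, which maintains DNA methylation at replication forks, was lower by 1.22, with WT values of 6.04, 5.39 and 5.32 and KO values of 3.92, 4.45 and 4.72. E2f8, a repressor of the E2F family, was lower by 1.07. E2f1 and E2f2 were not called, at -0.33 and -0.74.

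The DNA repair list went with the cell cycle list. Of 15 measured members of 16, 10 were called lower and none higher, with a median difference of -0.99. Exo1, an exonuclease of mismatch and break repair, had 2.57, 2.15 and 1.88 in the WT and 0.62, 0.87 and 0.98 in the KO, a difference of -1.38 (SE 0.26, limma adjusted p = 0.172). Fanci, of the Fanconi anaemia pathway, was lower by 1.26. The damage kinases Atm and Atr, which cells carry whether or not they divide, differed by 0.21 and 0.11 and were not called, nor was the mismatch repair gene Msh6 (-0.43).

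Whole gene families, which share some members with these lists and were picked after the values were seen, varied in how many of their members were called lower. Of the genes named Mcm it was 8 of 10, of those named Cdca 5 of 7 and of the Fanconi anaemia genes 3 of 7, with none higher. Among the genes named Kif, the kinesin motors, 11 of 25 were called lower and none higher. Among the genes named Cenp, which build the centromere, it was 8 of 14, with all 14 below 0. Among the replicative DNA polymerase and primase genes it was 6 of 12, and among the condensin and SMC genes 4 of 12, again with all 12 of each below 0. The Orc genes, which mark origins of replication, stood apart, with 1 of 5 called lower and a median of 0.07.

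Several of the largest single decreases were also genes of dividing cells. Tcf19, a transcription factor expressed at the entry into S phase, had 3.95, 3.18 and 2.67 in the WT and 1.66, 1.89 and 1.75 in the KO, a difference of -1.50 (SE 0.31, limma adjusted p = 0.186). The other genes named by size in this group were Bard1 (the partner of Brca1, -1.35), 2810417H13Rik (-1.34), Spc24 (kinetochore, -1.33), Polq (DNA polymerase theta, -1.32), Mastl (the Greatwall kinase, -1.29), Clspn (claspin, -1.28) and Iqgap3 (-1.28). The WT value of pair 3 was the lowest of the 3 WT values for each of them. With the pairs as a block and an FDR of 0.05, the genes called lower included 5 of cell division, namely Ccnb1, Cenpa (the centromeric histone H3 variant, -0.67), Anln (anillin, of the cleavage furrow, -0.97), Cep55 (of the midbody, -0.95) and Ube2c (the ubiquitin-conjugating enzyme of the anaphase-promoting complex, -1.13).

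The remaining genes called lower with the pairs as a block, beside Nelfb, were not genes of the cell cycle. Mmp12, macrophage elastase, had 6.96, 7.67 and 7.67 log2 CPM in the WT and 6.18, 6.29 and 6.23 in the KO, a difference of -1.20 (SE 0.19, limma adjusted p = 0.172 and 0.0484 with the block). Here pair 1 had the smallest difference and pair 3 the largest, the opposite order to that of the cell cycle list. Myo7a, an unconventional myosin, had 6.27, 6.22 and 6.08 in the WT and 5.33, 5.22 and 5.44 in the KO, a difference of -0.86 (SE 0.10, limma adjusted p = 0.0889 and 0.0376 with the block). The spread within each group was small for this gene, and no values overlapped.

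Padi4, which converts arginine in histones to citrulline, had 4.41, 4.04 and 3.76 in the WT and 3.56, 3.17 and 2.92 in the KO. Its difference was nearly equal in the 3 pairs, -0.85, -0.86 and -0.84 (limma adjusted p = 0.217 and 0.0354 with the block). Cbr2, a carbonyl reductase, was lower by 0.92, with pair differences of -0.80, -1.05 and -0.90. Mamdc2 and Qpct, the glutaminyl cyclase, had overlapping groups, because their levels differed between pairs, and were called only with the block. Mamdc2 had 4.53, 5.20 and 2.55 in the WT and 3.33, 3.58 and 0.87 in the KO, and Qpct had 5.34, 5.34 and 3.99 in the WT and 4.66, 4.56 and 3.31 in the KO. Plp2, a membrane protein, was lower by 0.76 (limma adjusted p = 0.437 and 0.0484 with the block).

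**Figure D3:**
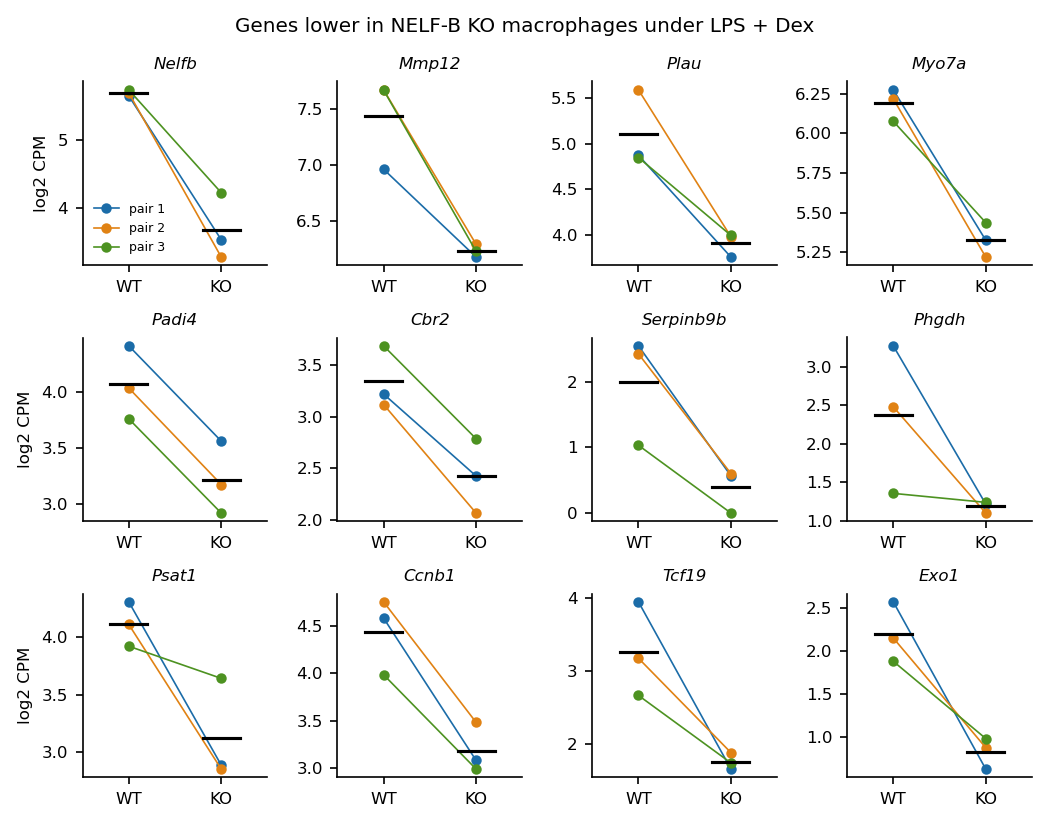
Levels of 12 genes lower in the KO under LPS + Dex are plotted as log2 CPM (vertical axes, each with its own range) in the WT and KO libraries (horizontal axes), with a coloured line for each mouse pair and a black bar for the mean of 3 libraries. The 3 lines of Padi4 run parallel, at -0.85, -0.86 and -0.84, while those of Phgdh range from -2.06 in pair 1 to -0.12 in pair 3.

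Genes of proteases and of protease inhibitors were split. In the matrix and protease list, 2 of 19 were called lower and 2 higher, with a median of 0.22. Plau, urokinase, a member of the Dex-repressed list, had 4.87, 5.59 and 4.85 in the WT and 3.76, 3.98 and 3.995 in the KO, a difference of -1.19 (SE 0.21, limma adjusted p = 0.172 and 0.0514 with the block). Serpinb2, the urokinase inhibitor PAI-2, also a member of that list, was higher by 1.54 with overlapping groups. Among the 6 clade B serpins measured, Serpinb9b and Serpinb6b were called lower. Serpinb9b had 2.55, 2.43 and 1.03 in the WT and 0.56, 0.60 and -0.002 in the KO, the largest decrease after Nelfb among the genes called, at -1.61 (SE 0.46, limma adjusted p = 0.236). Serpinb6b had 2.34, 2.82 and 2.24 in the WT and 0.75, 0.76 and 2.06 in the KO, so that the KO of pair 3 was nearly level with its WT partner. Clade B serpin genes are close copies of each other, and how reads shared between copies were counted beyond their being unique is not given.

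In the list of the unfolded protein and amino acid response, 4 of 20 measured members were called lower and 1 higher, with a median of -0.31. Phgdh, the first enzyme of serine synthesis, had 3.27, 2.48 and 1.35 in the WT and 1.22, 1.10 and 1.24 in the KO, a difference of -1.19 (SE 0.46, limma adjusted p = 0.391). Psat1, the next enzyme, was lower by 0.98, the mitochondrial folate enzyme Mthfd2 by 1.00 and Asns, asparagine synthetase, by 0.85. Shmt2, which makes glycine from serine in mitochondria, was not called, at -0.37. In each of the 4 called genes the difference was smallest in pair 3. The member called higher was Dnajb9, a chaperone of the endoplasmic reticulum. Within the NRF2 list, Gsta3 was called lower (-0.65) and Osgin1 higher (0.68), and the lysosome list had 1 called member of 24, Atp6v0d2, a proton pump subunit, at -0.97 with overlapping groups. Dusp8, a MAP kinase phosphatase and a member of the Dex-repressed list, was called lower at -0.94, while Errfi1, an inhibitor of EGF receptor signalling, was called higher at 1.07. BC030867 was lower by 1.40.

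Among the 81 genes called higher outside the Dex-repressed list, Arc had the largest difference after 4933433C11Rik. Arc, known as an immediate-early gene of neurons, had 0.77, 0.71 and 1.56 log2 CPM in the WT and 3.26, 3.83 and 4.25 in the KO. The difference was 2.77, or 6.81-fold (SE 0.33, limma adjusted p = 0.0889 and 0.0241 with the pairs as a block). No values overlapped, although the WT level was low. Rgs2, an inhibitor of G protein signalling, had 5.23, 5.01 and 4.57 in the WT and 6.76, 6.42 and 5.55 in the KO, a difference of 1.30 (SE 0.32, limma adjusted p = 0.204 and 0.035 with the block).

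A pair of histone genes was higher. H3f3b, which encodes histone H3.3, a variant whose deposition does not depend on DNA replication, had 8.90, 8.97 and 9.08 in the WT and 10.00, 10.05 and 9.99 in the KO, a difference of 1.03 (SE 0.09, limma adjusted p = 0.0503 and 0.0252 with the block). The KO libraries lay close together for this gene (SD 0.03, n = 3). Hist1h1c, a linker histone, had 5.46, 5.95 and 6.66 in the WT and 7.45, 7.51 and 7.47 in the KO, a difference of 1.45 (SE 0.27, limma adjusted p = 0.172). It is the 1 called member of the 4 genes of the histone list in the table. Transcripts of replication-dependent histone genes mostly lack a poly(A) tail, and the libraries were made from poly(A) RNA.
The promoter of H3f3b, at chr11:116024475-116024754 on the minus strand, is shown as that of a gene higher in the KO, with its 4 CCAAT boxes in capitals, and it also holds a TATAAA match.
H3f3b: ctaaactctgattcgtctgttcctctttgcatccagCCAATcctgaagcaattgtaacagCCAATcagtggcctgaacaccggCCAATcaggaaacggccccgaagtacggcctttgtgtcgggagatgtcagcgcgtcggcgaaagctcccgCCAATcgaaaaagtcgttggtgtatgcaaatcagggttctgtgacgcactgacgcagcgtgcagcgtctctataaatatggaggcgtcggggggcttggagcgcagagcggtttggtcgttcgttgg
It holds no TTTGAA match, which says only that these letters are not in this window.

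Lyz2, lysozyme M, had 5.08, 4.30 and 4.75 in the WT and 6.24, 5.77 and 6.02 in the KO, a difference of 1.30 (SE 0.21, limma adjusted p = 0.172 and 0.0241 with the block). LysM-Cre is an insertion into this gene, which both groups carry, and the number of copies per mouse is not given in the sources used here. Lyz1, a close copy next to Lyz2 on chromosome 10, had 5.05, 5.93 and 6.98 in the WT and 6.13, 5.60 and 6.51 in the KO, with a difference of 0.09 and overlapping groups, and reads of the copies may have been split between them. Of the 26 measured genes of the macrophage identity list, 2 were called higher, Lyz2 among them, and the median was 0.08.

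Thbs1, thrombospondin 1, had 10.02, 10.74 and 11.05 in the WT and 11.27, 11.42 and 12.77 in the KO, a difference of 1.22 (SE 0.44, limma adjusted p = 0.36). Bzrap1 and the gene model Gm11613 were each higher by 1.21 from levels under 3 log2 CPM in the WT. Hspa2, a heat shock protein 70 outside the Dex-repressed list, had 3.37, 3.29 and 3.55 in the WT and 4.61, 4.26 and 4.56 in the KO, a difference of 1.07 (SE 0.13, limma adjusted p = 0.0889 and 0.0327 with the block). Gdf3, of the TGF-beta family, was higher by 1.07, with pair differences from 1.94 in pair 1 to 0.22 in pair 3.

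**Figure D4:**
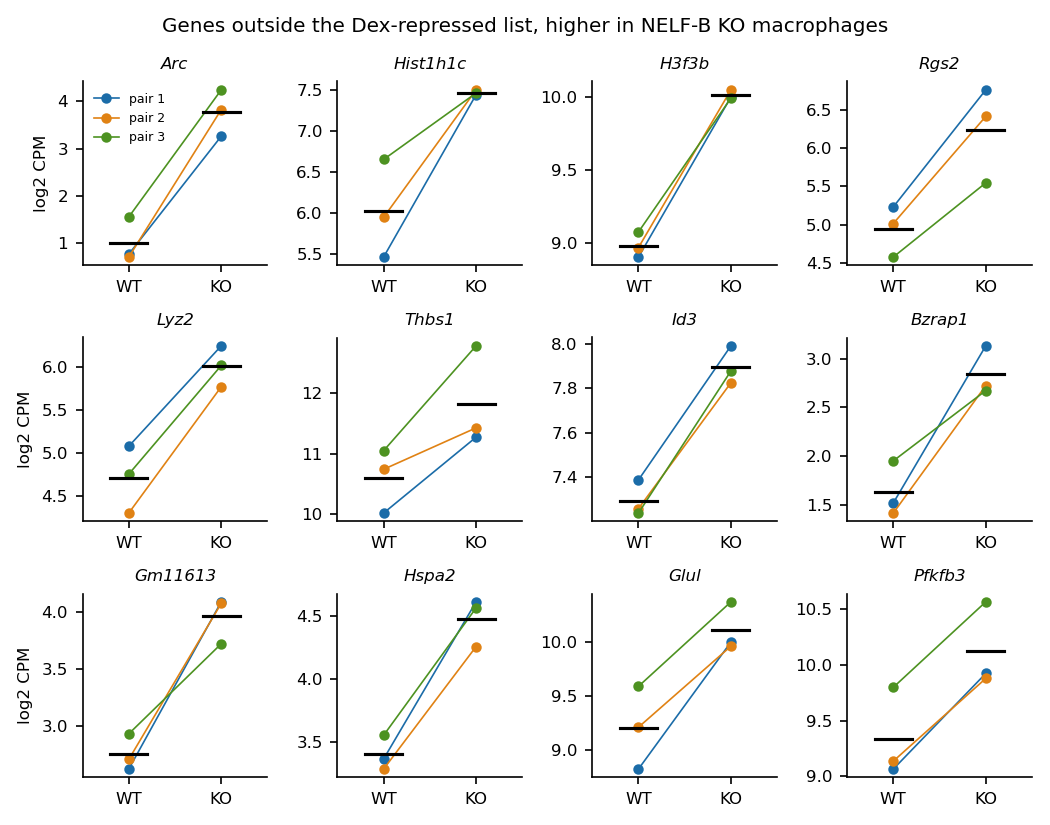
Levels of 12 genes outside the Dex-repressed list that were higher in the KO under LPS + Dex are plotted as log2 CPM (vertical axes, each with its own range) in the WT and KO libraries (horizontal axes), with a coloured line for each mouse pair and a black bar for the mean of 3 libraries. Every line rises from WT to KO. H3f3b goes from 8.90, 8.97 and 9.08 to 10.00, 10.05 and 9.99.

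Lists of stimulus-responsive genes held called genes in the upward direction. Of 23 measured immediate-early transcription factors, 8 were called higher and none lower, with a median of 0.40. They were Fosb (1.44), Nr4a1 (0.82), Nr4a2 (0.95), Ier5 (1.03), Ier3, Junb, Jun and Fosl2, and 6 of the 8 are on the Dex-repressed list, Jun and Fosl2 being the exceptions. Of 13 measured genes listed as induced by glucocorticoids, 3 were called higher, with a median of 0.52 and 12 of the 13 above 0. One was Rgs2, which in each WT mouse was lower under LPS + Dex (5.23, 5.01 and 4.57) than after LPS alone (5.89, 5.68 and 5.07). The others were Glul, glutamine synthetase, at 0.90 (WT 8.82, 9.21 and 9.59, KO 10.00, 9.96 and 10.37; limma adjusted p = 0.201 and 0.0484 with the block) and Mt1, metallothionein 1, at 0.59. In the hypoxia and glycolysis list, 3 of 28 were called higher with a median of 0.11, namely Vegfa (1.04), Egln3 (0.93) and Pfkfb3, which makes an activator of glycolysis (0.79; limma adjusted p = 0.302 and 0.0327 with the block). The TGF-beta and BMP list had 2 of 20 called higher, Smad7 (0.71) and Id3 (0.60). Among 27 elongation and BET factors 1 was called, Brd2, a reader of acetylated histones, at 0.60.

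The Dex-repressed list was chosen by the study on libraries that include 2 of the 3 WT libraries used here, those of pairs 2 and 3. Its direction is therefore not independent evidence. Of its 173 measured genes, 26 were called higher and 3 lower (Plau, Dusp8 and Dio2), with a median of 0.19. After LPS alone, 23 were called higher and 3 lower, with a median of 0.16. Under LPS + Dex the list had medians of 0.015, 0.169 and 0.356 in pairs 1, 2 and 3. In these pairs 85, 56 and 34 of the 173 genes were below 0. The lowest median is thus that of pair 1, whose WT library under LPS + Dex is not among the 2 that served to choose the list. After LPS alone the pair medians were 0.031, 0.155 and 0.32. What the choice of the list adds to these values was not tested. Its largest increases with groups that did not overlap were Hspa1a (2.43) and Hspa1b (2.10), inducible heat shock proteins 70 that are near-identical copies, Phlda1 (1.80), Fosb and Csf3 (1.19), a granulocyte growth factor. In the cytokine and chemokine list 3 of 24 were called higher, with a median of 0.26, namely Csf3, Lif (0.85) and Il1b (0.73). In the heat shock list 3 of 16 were called higher, Hspa1a, Hspa1b and Dnajb1 (0.66), with a median of 0.02.

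Other programmes differed little or not in the same way in each pair. None of the 18 NF-kB pathway genes, the 74 cytosolic ribosomal protein genes and the 76 respiratory chain genes was called, and their medians were 0.06, -0.01 and -0.01. Of 34 interferon-stimulated genes, 33 had a mean difference below 0, with a median of -0.39, yet 1 was called, Oas3 at -1.06, and the pair medians were -1.44 in pair 1, 0.44 in pair 2 and -0.19 in pair 3. The WT library of pair 1 stood above the others for this list, with a median member at 7.25 log2 CPM against 5.69 to 6.29 in the other 5 libraries. The 6 measured MHC class II genes had no called member without the block, and 2 were called higher with it at an unadjusted p. Their levels followed the mouse pair. The medians lay between 5.86 and 5.94 in the libraries of pair 3. They lay between 3.08 and 3.86 in those of pairs 1 and 2. None of the p53 target genes (20 measured), the cholesterol and fatty acid synthesis genes (24) and the LXR targets (9) was called without the block. Neither was any member of the receptor list (17) or the growth factor list (13). With the block, 1 p53 target and 1 member of the growth factor list were called lower at an unadjusted p. At that p, 1 LXR target, 1 receptor and 1 member of the growth factor list were called higher.

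The genes called lower and higher differed in build. The genes called higher spanned a median of 11.9 kb with 5 exons in the longest transcript of the GENCODE annotation, against 24.5 kb and 9 exons over all genes tested, and 31.4% of them spanned less than 5 kb against 9.62% of all. The genes called lower had a median span of 23.0 kb and 12 exons. Spliced length was alike in the 3 sets, with medians of 3.08, 3.13 and 3.16 kb for genes called higher, genes called lower and all genes. The genes called lower were less abundant in the WT, at a median of 3.74 log2 CPM, than all genes, at 5.08.

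Promoter windows of 300 bases from RefSeq could be matched for 7787 of the 9614 genes, giving 9954 windows, with 241 for genes called lower and 100 for genes called higher. TTTGAA was held by 32.8% of the windows of genes called lower, 12% of those of genes called higher and 11.9% of all. CCAAT was held by 56.4%, 44% and 37.3%, and TTTNGCGC by 7.47%, 4% and 2.61%. These 3 motifs were added after the lower genes had been seen. Over the cell cycle list alone, 36.6% of 41 windows held TTTGAA, 75.6% CCAAT and 19.5% TTTNGCGC. Of the motifs listed earlier, the TATA box TATAAA was held by 8.71% of the windows of genes called lower, 16% of those of genes called higher and 6.89% of all, and the GC box GGGCGG by 66.0%, 78% and 64.1%. The cyclic AMP element TGACGTCA was held by 4.15%, 4% and 3.14%, the AP-1 letters TGANTCA by 2.07%, 7% and 5.10%, the heat shock letters TTCNNGAA by 4.15%, 2% and 6.86%, the CArG box by 1.66%, 2% and 1.21%, and the NF-kB motif by 11.2%, 13% and 10.4%. Both strands were searched, each motif was counted on its own even where it overlapped another, and no test was made of these shares.

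**Figure D5:**
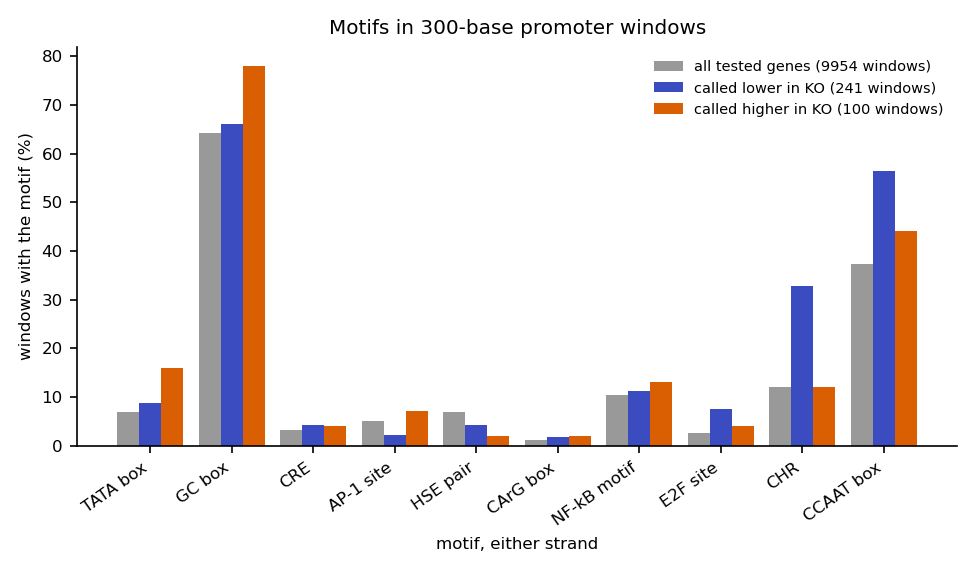
Bars give the percentage of 300-base promoter windows (vertical axis) that hold each motif on either strand (horizontal axis) for all tested genes, genes called lower and genes called higher in the KO. The blue bar of the cell cycle homology region, CHR (TTTGAA), stands at 32.8% against 11.9% for all genes, and that of the CCAAT box at 56.4% against 37.3%.

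The same mice were also compared after LPS alone, in other libraries, where 250 genes were lower in the KO (2.6%) and 89 higher (0.926%) at the same threshold. The genes called lower under LPS + Dex had median differences of -1.36, -0.94 and -0.51 in pairs 1, 2 and 3 under LPS + Dex, -1.37, -0.97 and -0.36 after LPS alone, and -0.78 and -0.33 in the untreated cells of pairs 2 and 3. The cell cycle list, of which 37 members were called lower after LPS alone, had a median of -0.96 under LPS + Dex, -0.90 after LPS alone and -0.54 in untreated cells. The genes called higher had medians of 0.73, 0.63 and 0.55. The untreated WT library of pair 2 stood apart, with a median of 8.45 log2 CPM for the ribosomal protein genes against 6.88 in its KO partner, and of 7.10 against 5.81 for the respiratory chain genes. In untreated pair 3 alone, the median was -0.31 for the cell cycle list and 0.36 for the genes called higher. Since the libraries come from the same mice, these values are not independent of each other. The called sets were also picked on their LPS + Dex values, which favours larger medians there than in the other treatments.

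Whether the genotype difference itself changed with Dex was asked of all 12 stimulated libraries together, by an interaction term with the mouse as a block. At an FDR of 0.05, 1 gene differed, Dusp2, a MAP kinase phosphatase, whose KO minus WT difference was 1.14 after LPS alone and 0.68 under LPS + Dex (interaction -0.47, limma adjusted p = 0.00452). An unadjusted interaction p under 0.05 was found for 669 of all 9614 genes. Among the 254 genes called lower it was found for 11, with a median interaction of -0.03. Among the 107 genes called higher it was found for 29, with a median interaction of 0.11. None of these called genes had an interaction FDR under 0.05. Both sets were picked on their LPS + Dex values, which also enter the interaction. In the cell cycle list 2 of 47 members had such a p, with a median interaction of -0.05. Arc differed by 3.08 after LPS alone and by 2.77 under LPS + Dex, and by 0.74 in untreated cells (0.88 in pair 3 alone). Pfkfb3 differed by 0.40 after LPS alone and by 0.79 under LPS + Dex (interaction 0.40, limma adjusted p = 0.054).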

How the data were processed

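BMDM libraries were made by the submitters from poly(A) RNA with the TruSeq mRNA kit and sequenced as paired reads. Per the study's methods and the submitters' processing notes, reads were mapped to mm10, reads unique to exons were counted per gene, and edgeR was used for scaling (CASAVA 1.8 and FastQC are also named). The deposited unit is log2 CPM per gene and library, and the authors' p-values and FDR values for their own comparisons were not used. Every gene of the table is above 1 CPM in at least 6 of 16 libraries. Whole reads were recovered from the log2 CPM values (100.0% of values under 3 CPM came out within 0.1 of a whole read in each library), which gave effective depths of 22050000 to 45935000 reads, and these serve voom and the read counts given for 4933433C11Rik only.

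Since the values are on a log scale, KO and WT were compared with limma 3.58.1 (R 4.3.3; lmFit, eBayes with trend, two-sided) on the deposited values of the 6 libraries, with Benjamini-Hochberg adjustment over 9614 genes. Groups and mice were taken from the labels. Deviations from the group means correlated at 0.482, 0.521 and 0.76 within mouse pairs 1, 2 and 3 and at 0.263 or less between pairs. The numbers therefore pair the samples, and values with the pairs as a block are given for part of the calls that they change. The pairs rest on tokens in the library labels, and pair 2 is the pair left over. Replicates are separate mice. The scripts were tested on simulated data.

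Members, gene lists and tests were chosen with earlier results of these data known. Named genes are the NELF and DSIF subunits. Among genes called at an unadjusted p under 0.05 and over 1.5-fold, with no overlap, 1 direction in 3 pairs and a mean above 1 log2 CPM, the 15 largest decreases, the 10 largest increases outside and the 5 inside the Dex-repressed list are also named, as are genes called with the block (all lower, the 10 largest higher) and up to 4 called members of each list. Others were singled out after their values were seen. Alternatives were the block, voom, a filter, log2(CPM + 1), median centring, a fit of 12 libraries and leaving out each library. Promoters, positions and names are from RefSeq GRCm38.p6 (9085 symbols matched directly and 471 by a synonym) and GENCODE vM21, both the assembly mm10 is made from. Intervals for single values are not given, since precision is set by the 3 mice per group. Some named genes are not reported here.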

Additional observations from a re-analysis of the deposited data

Results flagged for a closer look

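Dusp2 differed in its genotype effect between treatments. KO minus WT was 1.14 after LPS alone and 0.68 under LPS + Dex, and the interaction of -0.47 had a limma adjusted p of 0.00452 with the mouse as a block. Under LPS + Dex the WT values of Dusp2 were 7.55, 6.79 and 8.19 and the KO values 8.07, 8.18 and 8.31 in pairs 1, 2 and 3, with overlapping groups. The groups of 2 or 3 libraries are too small for the test for single outlying samples.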

How the results depend on the processing

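With the replicate block of mouse pairs, 13 genes were lower and 35 higher at an FDR of 0.05, where the fit without it had 0 and 0, and Nelfb (-2.003) passed that FDR. The block with voom gave 16 and 36, with a filter 13 and 35, with centring 20 and 35. The single fit of 12 libraries gave 6 lower and 20 higher, voom alone 0 and 3, centring alone 0 and 1. Nelfb also passed in the fit of 12 libraries (-2.003) and in the block with voom (-1.952), a filter (-2.003) or centring (-2.002). It passed in the block without pair 1 (-1.952) or pair 3 (-2.252), but not without pair 2 (-1.804, limma adjusted p = 0.133). With 1 library left out its difference ranged from -2.274 to -1.804. Nelfb then passed without WT 3 (limma adjusted p = 0.0262) or KO 3 (0.00892), and not without any other library (0.24 to 0.366).

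Pair 3 decided the counts most. Without its WT library 398 genes were lower and 173 higher at an unadjusted p, 138 of the latter outside the Dex-repressed list, and 114 and 32 at an FDR of 0.05. The lowest of these 5 counts with any 1 library left out were 192, 104, 77, 0 and 0, and leaving out WT 1 or KO 3 gave 1 lower gene at the FDR. The block without pair 3 gave 415 and 172 at an unadjusted p, 142 outside the Dex-repressed list, and 191 and 77 at the FDR. Without pair 1 it gave 5 and 25, and without pair 2 it gave 0 and 0 at the FDR and 131 outside the list. Blocks combined with other settings or a left-out pair were chosen after seeing the data. The cell cycle list had 35 to 40 of 47 members called lower and the DNA repair list 9 to 11 of 15 in all of these fits.

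The interaction found 0 genes with no replicate block and 0 to 5 with a mouse left out (0 without WT 1, 3 without WT 3 and 5 without KO 3). No named gene reversed its direction. Of planned fits of all 6 libraries, voom lost the unadjusted call of Atp6v0d2, Gsta3, Phgdh and Serpinb2, and the fit of 12 libraries that of Atp6v0d2, Gsta3, Oas3 and Plp2. More calls were lost with 1 library left out. Of the 77 named genes beside Nelfb, 11 lost an unadjusted p under 0.05 without WT 2. The number was 8 without WT 1 or KO 2, 7 without KO 1 and 6 without KO 3. Without WT 3, 3 lost it and 2 gained it. The cause of these changes was not tested beyond their construction. Depth limits genes near the floor of 3 reads, and 3 mice per group limit the rest.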
